A study of Homo sapiens with 50 samples.

Results

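The 10 genes described here make, conjugate, move and regulate bile acids in hepatocytes, and were chosen by name: CYP7A1, CYP7B1, CYP8B1 and CYP27A1 (sterol hydroxylases), SLC27A5 and BAAT (conjugation), ABCB11 and SLC10A1 (transport), and NR0B2 and FGF19 (feedback). All 10 were in the deposited table of 79112 genes and loci, and 6 of them were among the 24222 that passed the filter of at least 1 FPKM in at least 5 libraries. FPKM are fragments scaled by transcript length and library size, summed here over the transcripts of a gene. The 50 RNA-seq libraries fall into 10 groups of 5, all of differentiated HepaRG cells, a human liver line that grows as a mixed culture of hepatocyte-like and biliary-like cells. Quizalofop-p-ethyl, isoxaflutole and mesotrione were given at 0.1 uM, 10 uM and 1 mM from day 8 to day 14, the last group is labelled control, and per the labels' protocols the medium of that period held 2% serum and 1% DMSO. Mesotrione and isoxaflutole are herbicides of plant pigment synthesis, and quizalofop-p-ethyl is a herbicide of plant fatty acid synthesis. Replicate 5 of quizalofop-p-ethyl 10 uM was left out, which leaves 49 libraries. All groups come from 1 cell line, and the labels do not say whether the libraries of a group are separate cultures, so p-values measure the spread between these libraries, which may be technical.

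Bile acids are made from cholesterol in the liver. In the classic route CYP7A1 sets the rate and CYP8B1 adds the hydroxyl group of cholic acid. In the alternative route CYP27A1 and CYP7B1 act in turn. SLC27A5 activates bile acids with coenzyme A and BAAT joins them to glycine or taurine, ABCB11 (the bile salt export pump) secretes them into the canaliculus, and SLC10A1 (NTCP) takes them up from blood. Bile acids bind the receptor FXR, the product of NR1H4, which induces NR0B2 (SHP) in liver and FGF19 in the ileum, and both lower CYP7A1.

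Promoters of 5 of the 10 genes were found in a table of RefSeq promoters (GRCh38.p14, 250 bases before to 50 after the start, 300 in all), namely CYP27A1, BAAT, SLC27A5, ABCB11 and SLC10A1. Each was searched on both strands for AGGTCA (the half-site of many nuclear receptors), for AGGTCA and TGACCT as an inverted repeat with 1 base between, for TCAAGGTCA (NR5A2, which holds AGGTCA), CAAAGTCCA (HNF4A) and TATAAA. BAAT and SLC10A1 were the genes of these 5 with an exact match, and their promoters are printed. In quizalofop-p-ethyl 1 mM, BAAT fell furthest of these 5, and SLC10A1, CYP27A1 and SLC27A5 did not overlap control either. The BAAT run, on the minus strand at chr9:101383565-101383814, ends 1 base before the RefSeq start. The SLC10A1 run, on the minus strand at chr14:69797290-69797491, ends before the start of its deposited transcript. Capitals mark TATAAA and the half-site, read as TGACCT in BAAT.
BAAT: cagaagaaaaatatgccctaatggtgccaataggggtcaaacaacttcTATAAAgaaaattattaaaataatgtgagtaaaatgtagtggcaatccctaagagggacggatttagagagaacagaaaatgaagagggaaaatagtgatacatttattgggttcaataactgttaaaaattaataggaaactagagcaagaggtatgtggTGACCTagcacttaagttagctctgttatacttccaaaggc
SLC10A1: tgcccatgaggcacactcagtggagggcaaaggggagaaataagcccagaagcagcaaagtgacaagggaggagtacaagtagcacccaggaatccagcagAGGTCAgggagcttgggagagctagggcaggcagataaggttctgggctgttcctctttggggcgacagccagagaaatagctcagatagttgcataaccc
The half-site stood in 13.8% of all 35116 promoters of that length and TATAAA in 11.5%, the inverted repeat in 0 of them, TCAAGGTCA in 0.353% and CAAAGTCCA in 0.384%. The second BAAT start in that table had no match. These matches are letters in a window and were not measured as binding. Only exact letters were counted, so a promoter without a match, such as that of ABCB11, may hold variant sites. An inverted repeat found in 0 of all promoters cannot tell these genes apart.

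Estimated depth was 7180000 to 34240000 fragments in the 49 libraries and 3780000 in the library left out. The hepatocyte markers were present in control (14 of 14 tested, ALB 8217 to 10318 FPKM) and so were biliary ones (KRT19 482 to 596 FPKM), with 7 of 10 biliary markers tested. Leukocyte, mesenchymal and intestinal lists had 3 of 4, 6 of 8 and 1 of 4 genes tested. Their sums in control were 8.75 to 36.2, 52.3 to 68.1 and 2.55 to 4.04 FPKM. Single members of the intestinal, biliary and leukocyte lists, CDX2, EPCAM and PTPRC, were at 0.0648 FPKM or less in control. In the quizalofop-p-ethyl 1 mM libraries the summed FPKM of the 14 hepatocyte markers was 5848, 1617, 2740, 2335 and 239.5 in replicates 1 to 5, against 20606.8 to 25197.5 in control. All 14 fell at an adjusted p below 0.05 (limma), where 19.8% of all tested genes were lower. Replicate 5 of that group stands apart with the lowest sum. The summed biliary markers were 99.6 to 208 FPKM in that group, against 713 to 798 FPKM in control, and the mitochondrial share of summed FPKM was 0.333% to 1.90%, against 0.409% to 0.547%. Mesenchymal and intestinal sums in that group were 14.9 to 26.5 and 0.206 to 0.518 FPKM, below control. The leukocyte sum, 2.72 to 15.6 FPKM, overlapped control. In these bulk libraries, fewer cells of a type and less RNA per cell cannot be told apart.

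All 6 bile acid genes that were tested fell in quizalofop-p-ethyl 1 mM. BAAT had the lowest fold change with 1 added to FPKM, while as a share of control fragments CYP7A1 was lower (0.419%, against 14.7% for BAAT), as it was with 0.1 added. Tests are limma on log2(FPKM + 1) over the 49 libraries, with p-values adjusted over all 24222 genes and a threshold of 0.05. In that comparison 19.8% of all tested genes were lower and 13% higher, and the median log2 fold change was -0.88 over the 6 genes and -0.08 over all tested genes. The 6 were chosen with earlier results of these data known and passed a filter that uses the level in other groups, so their count is a description. That hepatocyte markers moved with them is given above, and its part in each fall was not tested.

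**Figure D1:**
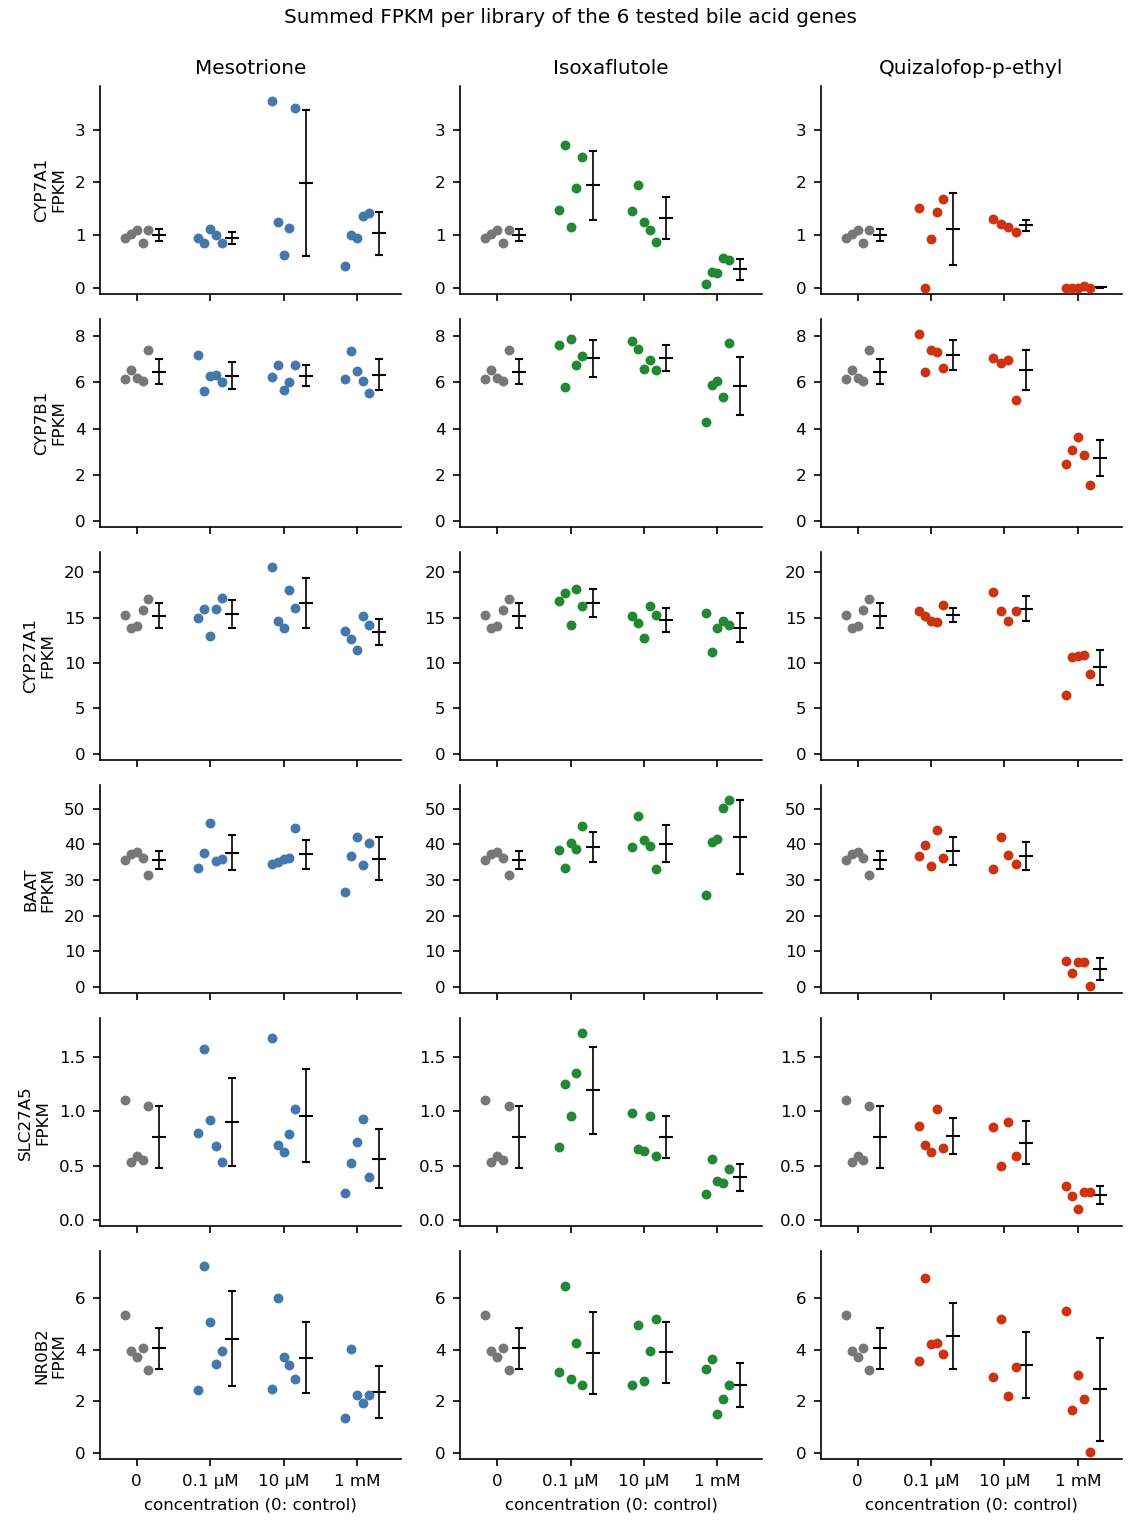
Summed FPKM (vertical axis, from 0) of the 6 tested genes by concentration of each compound, with 1 point per library, and the mean and SD as a bar beside the points; the 5 control libraries are repeated in each panel at 0. BAAT lies at 7.38 FPKM or less in all 5 quizalofop-p-ethyl 1 mM libraries and at 31.3 FPKM or more in all 5 control libraries.

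CYP7A1, the rate-limiting enzyme on chromosome 8, was listed at 0, 0, 0, 0.0236 and 0 FPKM in the quizalofop-p-ethyl 1 mM libraries, against 0.947, 1.03, 1.10, 0.841 and 1.09 FPKM in control. The exposed libraries hold about 1 estimated fragment of CYP7A1 in all, against 263 in control. Per fragment sequenced that is 0.419% of the control level, with an exact (Clopper-Pearson) 95% interval of 0.0106% to 2.36%, which covers counting error alone. The groups did not overlap, and the fitted log2 fold change of -0.99 (SE 0.21, adjusted p = 0.000223, limma) is limited by the added 1, since control itself is near 1 FPKM. With 0.1 added instead, the fold change was -3.40.

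CYP8B1, which makes the cholic acid branch, did not pass the filter. It stood at 0.0127, 0.0219, 0.0295, 0.0349 and 0 FPKM in the quizalofop-p-ethyl 1 mM libraries, against 0.368, 0.316, 0.191, 0.261 and 0.721 FPKM in control. The groups did not overlap. About 6 fragments in the exposed libraries and 139 in control give 4.76% of the control level (exact 95% counting interval 1.72% to 10.6%). The exact two-sided permutation test gave p = 0.00794, the smallest that 5 against 5 libraries allow, and 0.143 adjusted over 36 such tests. At that floor a test passes the adjustment only if several of the 36 lie near it. Not passing there therefore decides nothing about CYP8B1. In a fit with no filter over 68337 genes its adjusted p was 0.0191 (limma). CYP8B1 (chr3:42856005-42876165, minus strand) overlaps ACKR2 and KRBOX1 on the other strand. The kit marks strand, but the sources used here do not say whether the authors counted by strand.

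Both enzymes of the alternative route fell. CYP27A1, the mitochondrial sterol 27-hydroxylase (chr2:218781749-218815293, plus strand, 9 exons), had 6.48, 10.7, 10.8, 10.9 and 8.83 FPKM in the quizalofop-p-ethyl 1 mM libraries, against 15.3, 13.8, 14.1, 15.8 and 17.1 FPKM in control. CYP7B1, the oxysterol hydroxylase that follows it, had 2.47, 3.09, 3.64, 2.86 and 1.54 FPKM in those libraries, against 6.17, 6.52, 6.18, 6.08 and 7.42 FPKM in control. Neither pair of groups overlapped. The mean of CYP27A1 was 62.5% of control (log2 fold change -0.64, SE 0.10, adjusted p = 2.64e-06, limma) and that of CYP7B1 was 42.0% (-1.03, SE 0.11, adjusted p = 4.18e-10). Nearly all of the CYP27A1 signal came from ENST00000258415, at 9.26 FPKM on average in exposed cells and 15.01 FPKM in control. With all 50 libraries in the fit, CYP27A1 no longer passed (adjusted p = 0.106).

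BAAT, which joins bile acids to glycine or taurine, was the most abundant of the 10 genes per length. It had 7.38, 4.0, 6.97, 7.13 and 0.235 FPKM in the quizalofop-p-ethyl 1 mM libraries, against 35.5, 37.4, 37.8, 36.3 and 31.3 FPKM in control. The exposed libraries lay far below control, and replicate 5, lowest in hepatocyte markers, was also lowest in BAAT, CYP7B1, CYP8B1, ABCB11 and NR0B2. Other genes went differently: SLC10A1 was highest in replicate 5, and SLC27A5 was lowest in replicate 3. CYP27A1 was lowest in replicate 1, which was highest in hepatocyte markers. The mean was 14.4% of control, and the log2 fold change was -2.85 (SE 0.26, adjusted p = 4.12e-12, limma). Between its annotated transcripts (gene at chr9:101360417-101383519, minus strand), ENST00000259407 fell, to 4.66 against 34.6 FPKM on average in control (log2 fold change -2.91, adjusted p = 9.45e-12 over 54806 transcripts, limma). The shorter ENST00000395051 averaged 0.479 FPKM in exposed cells and 1.04 FPKM in control (log2 fold change -0.49, adjusted p = 0.459).

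SLC27A5, the bile acid coenzyme A ligase (chr19:58479512-58512413, minus strand), was low throughout and passed the filter through 9 of 49 libraries. Its summed level was 0.314, 0.221, 0.102, 0.259 and 0.256 FPKM in the quizalofop-p-ethyl 1 mM libraries, against 1.11, 0.530, 0.588, 0.550 and 1.05 FPKM in control, with no overlap (log2 fold change -0.51, SE 0.14, adjusted p = 0.00341, limma). The sum hides a difference between transcript types. Transcripts that GENCODE 29 calls protein-coding were listed at 0 FPKM in all 5 exposed libraries, against 0.745, 0.237, 0.158, 0.2999 and 0.606 FPKM in control, and they were above 0 in every other library of the 49. The rest of the signal, from transcripts annotated as decay targets, retained introns or processed, was 0.230 ± 0.079 FPKM in exposed cells and 0.355 ± 0.083 FPKM in control (SD, n = 5 each). ENST00000595851, a decay-target transcript, was at 0.158 ± 0.059 FPKM in exposed cells and 0.165 ± 0.055 FPKM in control. It spans chr19:58479512-58499263, and the coding ENST00000263093 spans chr19:58498337-58512065, so most of its span lies outside the coding transcript. Whether its fragments belong to ligase transcripts was not tested. The split between transcript types was seen after the values were known and was not tested. It rests on 55 fragments in exposed cells and 145 in control, and SLC27A5 overlaps ZNF446 on the other strand.

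**Figure D2:**
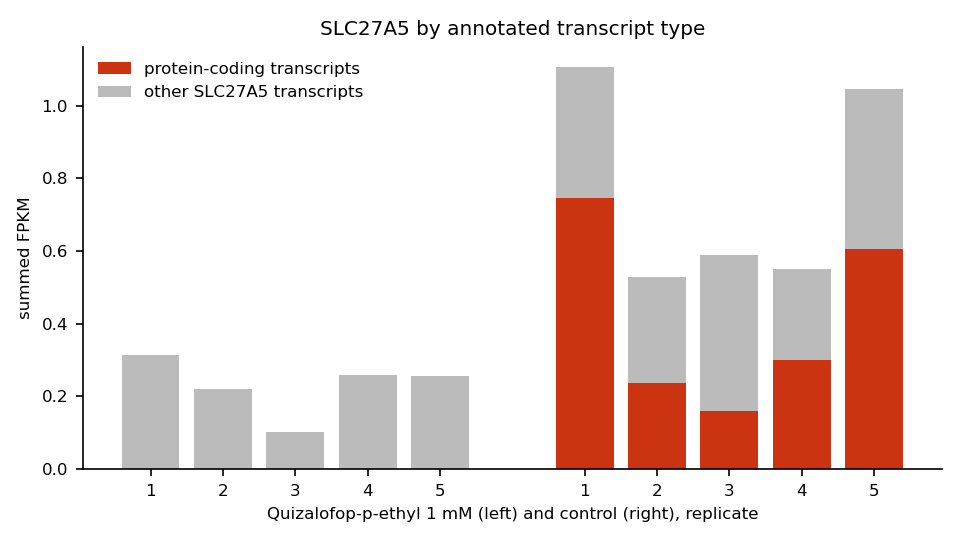
SLC27A5 summed FPKM (vertical axis, from 0) in each quizalofop-p-ethyl 1 mM library (left) and control library (right), stacked by annotated transcript type. The protein-coding share is 0 in all 5 exposed libraries and between 0.158 and 0.745 FPKM in control.

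Of the transporters, SLC10A1, the sodium-dependent uptake carrier (chr14:69775417-69797289, minus strand), was lower in quizalofop-p-ethyl 1 mM, at 0.198, 0.119, 0.312, 0.330 and 0.406 FPKM, against 0.895, 0.835, 0.659, 0.874 and 0.507 FPKM in control. The groups did not overlap. The exact two-sided permutation test gave p = 0.00794, again its floor, and 0.143 after adjustment over the 36 tests. As for CYP8B1, that adjusted value decides nothing. The fit with no filter gave an adjusted p of 6.76e-05 (limma). ABCB11, the export pump (chr2:168915498-169031324, minus strand), was at or below 0.341 FPKM in all 49 libraries and held 12 fragments in the exposed libraries and 36 in control. Its values were 0.0735, 0.0116, 0.0227, 0.102 and 0 FPKM in quizalofop-p-ethyl 1 mM, against 0.0455, 0.0694, 0.0376, 0.0353 and 0.341 FPKM in control. These overlap, and the exact permutation p was 0.405. Per fragment sequenced ABCB11 was at 36.8% of control (exact 95% counting interval 17.4% to 72.3%). That ratio rests on single libraries: control replicate 5 holds 21.8 of the control fragments, and without it ABCB11 was at 63.5% (interval 27.1% to 145%), while without replicate 1 of quizalofop-p-ethyl 1 mM it was at 20.4%.

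**Figure D3:**
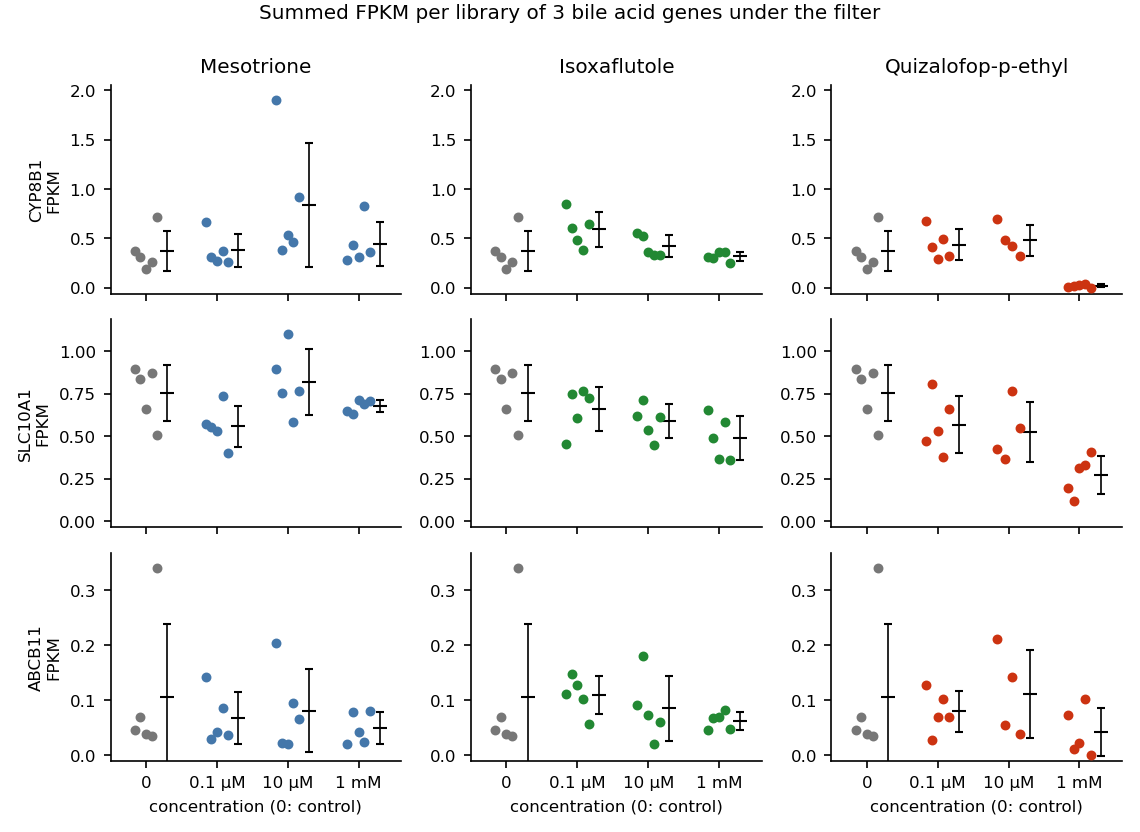
Summed FPKM (vertical axis, from 0) of CYP8B1, SLC10A1 and ABCB11, which did not pass the filter, by concentration, with 1 point per library and the mean and SD beside the points; control is at 0 in each panel. CYP8B1 lies at 0.0349 FPKM or less and SLC10A1 at 0.406 FPKM or less in quizalofop-p-ethyl 1 mM, below every control library.

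NR0B2, the FXR-induced repressor SHP (chr1:26911489-26913966, minus strand), had 5.51, 1.67, 3.01, 2.10 and 0.0529 FPKM in quizalofop-p-ethyl 1 mM, against 5.37, 3.96, 3.73, 4.06 and 3.22 FPKM in control. The groups overlapped, with the highest exposed library above all of control and the lowest near 0. The log2 fold change was -0.76 (SE 0.29, adjusted p = 0.0407, limma), and it rests on replicate 5: without it the value was -0.39 (adjusted p = 0.290). The call was lost in 10 of 17 alternative settings that sum transcripts per gene, with adjusted p over all of them from 0.00353 to 0.290 (limma). NR0B2 overlaps NUDC on the other strand. FGF19, the ileal hormone (chr11:69698232-69704642, minus strand), was listed at 0 in 48 of 49 libraries, and replicate 5 of quizalofop-p-ethyl 1 mM had 1 estimated fragment (0.0252 FPKM).

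Mesotrione and isoxaflutole at 1 mM changed none of the 6 tested genes past the threshold, where 0.879% and 2.42% of all tested genes were called in either direction (limma). At an unadjusted p under 0.05 there was 1 such gene for mesotrione, NR0B2, and 2 for isoxaflutole, CYP7A1 and SLC27A5. The median log2 fold change of the 6 was -0.10 for mesotrione and -0.24 for isoxaflutole, against -0.01 over all tested genes in each. All comparisons with control share the same 5 control libraries. Summed hepatocyte markers were 11039.9 to 20363.4 FPKM in isoxaflutole 1 mM and 13216.9 to 21756.4 FPKM in mesotrione 1 mM, against 20606.8 to 25197.5 FPKM in control, so isoxaflutole lay below control and mesotrione overlapped it. Summed biliary markers were 547 to 674 and 494 to 632 FPKM in isoxaflutole and mesotrione, against 713 to 798 FPKM in control, and mesenchymal ones were 20.6 to 28.8 and 21.2 to 33.4 FPKM, against 52.3 to 68.1 FPKM, all without overlap. The part of these markers in the values that follow was not tested.

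CYP7A1 was low in isoxaflutole 1 mM, at 0.0726, 0.294, 0.282, 0.568 and 0.530 FPKM, each below the lowest control value of 0.841 FPKM. The mean was 34.8% of control, but the log2 fold change of -0.58 (SE 0.21) had an adjusted p of 0.177 (limma). Replicate 1, the lowest of that group in CYP7A1 and BAAT, was also its lowest in summed hepatocyte markers. In mesotrione 1 mM CYP7A1 ranged from 0.418 to 1.42 FPKM around the control range, and its log2 fold change of 0.00 (95% interval -0.43 to 0.43) leaves room for changes of that size. CYP8B1 overlapped control in both, at 0.253 to 0.367 FPKM in isoxaflutole and 0.276 to 0.831 FPKM in mesotrione. SLC10A1 was 0.362 to 0.652 FPKM in isoxaflutole 1 mM, overlapping control, with an exact permutation p of 0.0317 and 0.381 after adjustment.

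BAAT did not pass with either compound. It had 25.8, 40.6, 41.6, 50.1 and 52.5 FPKM in isoxaflutole 1 mM and 26.8, 36.6, 42.1, 34.1 and 40.3 FPKM in mesotrione 1 mM, and both ranges enclose that of control. CYP27A1 was 11.3 to 15.5 FPKM and 11.4 to 15.2 FPKM in isoxaflutole and mesotrione, with log2 fold changes of -0.13 and -0.18, and CYP7B1 had -0.14 and -0.03. NR0B2 averaged 2.63 ± 0.86 FPKM in isoxaflutole, 2.36 ± 1.01 FPKM in mesotrione and 4.07 ± 0.80 FPKM in control (SD, n = 5 each). Its log2 fold changes there, -0.50 and -0.63, were near that of quizalofop-p-ethyl, with adjusted p of 0.505 and 0.489 (limma). SLC27A5 had log2 fold changes of -0.33 and -0.17 (adjusted p = 0.276 and 0.781). Across the 10 groups, the mean of quizalofop-p-ethyl 1 mM was lowest for CYP7A1, CYP7B1, CYP8B1, CYP27A1 and BAAT, without overlap with the group above it. It was also lowest for SLC27A5, SLC10A1 and ABCB11, where it overlapped the group above it. For NR0B2 the lowest mean was in mesotrione 1 mM and the neighbouring groups overlapped. How many of all genes show such an order, or do not overlap control, was not counted. In quizalofop-p-ethyl 1 mM 19.8% of all tested genes were called lower than control.

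**Figure D4:**
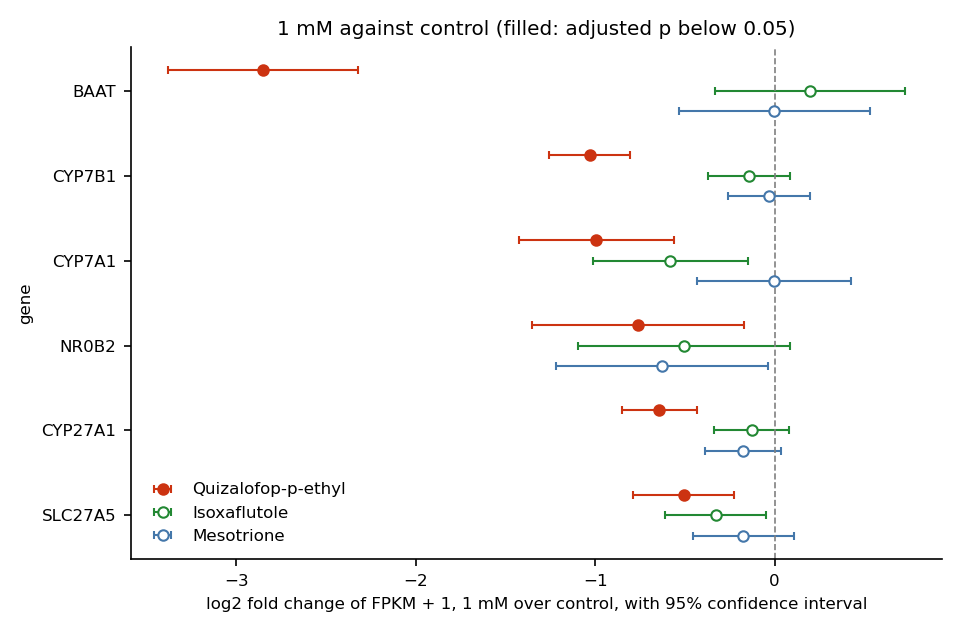
Log2 fold change of FPKM + 1 at 1 mM over control (horizontal axis) with its 95% confidence interval for the 6 tested genes (rows) and the 3 compounds (colours); filled points have an adjusted p below 0.05. Quizalofop-p-ethyl lies below 0 for all 6 genes, its interval is separate from both others for BAAT (-2.85), CYP7B1 and CYP27A1, and all 3 intervals overlap for NR0B2.

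The compounds were also compared with each other at 1 mM, in 3 pairs. Against isoxaflutole, quizalofop-p-ethyl had lower BAAT (log2 fold change -3.05, adjusted p = 7.63e-13), CYP7B1 (-0.89, adjusted p = 1.76e-08) and CYP27A1 (-0.51, adjusted p = 0.000112), so 3 of 6 passed, where 18.1% of all tested genes were lower (limma). CYP7A1 did not pass against isoxaflutole (-0.41, 95% interval -0.84 to 0.02, adjusted p = 0.152), although the 5 quizalofop-p-ethyl libraries, at 0.0236 FPKM or less, lay below the 5 of isoxaflutole. With 0.1 added in place of 1 it did (-1.96, adjusted p = 0.00108). Against mesotrione the same 3 genes and CYP7A1 were lower (4 of 6, where 17.6% of all tested genes were lower): BAAT by -2.85, CYP7B1 by -1.001, CYP7A1 by -0.99 and CYP27A1 by -0.47 on the log2 scale. NR0B2 did not differ past the threshold in either pair (95% intervals -0.85 to 0.33 and -0.73 to 0.46). Between isoxaflutole and mesotrione, 0 of 6 passed, where 0.256% of all tested genes were called. CYP7A1 alone had an unadjusted p under 0.05 there, with a log2 fold change of -0.58 (adjusted p = 0.483, limma).

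At 0.1 uM and 10 uM no bile acid gene passed the threshold. The called share of all tested genes was 0% for mesotrione 0.1 uM and 10 uM, isoxaflutole 0.1 uM and 10 uM and quizalofop-p-ethyl 0.1 uM, and 0.00826% for quizalofop-p-ethyl 10 uM (limma). At an unadjusted p under 0.05 mesotrione held 1021 and 735 of all tested genes at 0.1 uM and 10 uM, isoxaflutole 1212 and 1070, and quizalofop-p-ethyl 901 and 1161. The same limit held 1 bile acid gene in mesotrione 10 uM (CYP7A1) and 2 in isoxaflutole 0.1 uM (CYP7A1 and SLC27A5), and 0 in the other comparisons. Log2 fold changes of the 6 genes lay between -0.23 and 0.53.

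Some low-dose libraries lay outside the control range in CYP7A1, in 1 group all 5 of them. In mesotrione 10 uM CYP7A1 had 3.55, 1.24, 0.622, 1.13 and 3.41 FPKM. Replicate 3 lay below the control range, replicates 2 and 4 just above it, and replicates 1 and 5 far above it. Replicates 1 and 5 were also highest in CYP8B1, at 1.90 and 0.923 FPKM, against 0.382 to 0.533 FPKM in the other replicates. In isoxaflutole 0.1 uM CYP7A1 had 1.48, 2.71, 1.16, 1.89 and 2.49 FPKM, all above the control range of 0.841 to 1.10 FPKM, with a log2 fold change of 0.53 (adjusted p = 0.960, limma). In quizalofop-p-ethyl 0.1 uM replicate 2 was listed at 0 FPKM while the others had 0.922 to 1.68 FPKM. An assembled 6-exon transcript of the locus held 1.67 FPKM in that replicate and 0 in the other 48 libraries, so in that replicate the table gives the level of the locus to the assembled transcript. In quizalofop-p-ethyl 1 mM the assembled transcript was also listed at 0.

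Genes beyond the 10 were counted in lists chosen with earlier results known. Of 13 tested synthesis genes, 9 fell and 2 rose in quizalofop-p-ethyl 1 mM (median log2 fold change -0.75), where 19.8% of all tested genes were lower and 13% higher, so the share that rose is near that of all genes. AKR1C4, a 3-alpha-hydroxysteroid dehydrogenase, was 1.65 to 4.26 FPKM there, against 12.5 to 17.0 FPKM in control (log2 fold change -2.16). SLC27A2 (an acyl coenzyme A ligase), ACOX2 and SCP2 (both of peroxisomal side-chain shortening) also fell, by -1.53, -1.20 and -0.97 on that scale. POR, the electron donor of microsomal P450 enzymes, rose to 157 to 251.7 FPKM, against 32.3 to 44.6 FPKM in control (2.34), and CYP2R1, the vitamin D 25-hydroxylase, rose by 0.68. With POR in it, the summed synthesis list was higher, at 254 to 331 FPKM against 183 to 210 FPKM, while its median fell.

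Of 13 tested transport genes, 6 fell and 0 rose (median -0.43), beside the same 19.8% and 13% over all tested genes. ABCG8, a subunit of the sterol exporter, was listed at 0 in all 5 quizalofop-p-ethyl 1 mM libraries, against 6.00 to 8.70 FPKM in control (adjusted p = 6.94e-17, limma). Whether assembled transcripts of the ABCG8 locus held signal in those libraries was not checked. The uptake carriers SLCO2B1 and SLCO1B1 fell, with log2 fold changes of -1.91 and -1.63, as did EPHX1, a microsomal epoxide hydrolase (-0.53). ABCC2 and ABCC3, exporters of conjugates, did not pass, with averages of 23.4 and 50.4 FPKM in exposed cells and 32.3 and 41.4 FPKM in control. SLC10A2, the ileal uptake carrier, was listed at 0 in both groups.

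Of 17 tested regulators, 10 fell and 2 rose (median -0.80), and the share that rose is again near the 13% of all tested genes, while 19.8% of those were lower. NR5A2 (LRH-1, an activator of CYP7A1) averaged 0.664 FPKM in quizalofop-p-ethyl 1 mM and 6.10 FPKM in control (log2 fold change -2.23). PROX1, a corepressor, HNF4A, a hepatocyte master regulator, and NR1H4 fell too, with log2 fold changes of -2.17, -1.97 and -1.86. FGFR4 and KLB, the receptor and coreceptor of FGF19, had -1.67 and -1.18. MAFG, a repressor of bile acid genes in mouse, rose by 2.11 but with a wide spread, at 2.95 to 40.9 FPKM against 0.887 to 2.97 FPKM, and VDR rose by 0.45 (adjusted p = 0.0437, limma). Of 6 detoxification genes 5 fell (median -1.98), where 19.8% of all tested genes were lower: UGT2B4, SULT2A1, UGT2B7 and CYP2B6 had log2 fold changes of -3.91, -3.86, -2.50 and -1.45, where SULT2A1 sulfates and UGT2B4 glucuronidates bile acids. The hepatocyte markers had a median of -4.199 beside these lists, and their part was not tested.

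**Figure D5:**
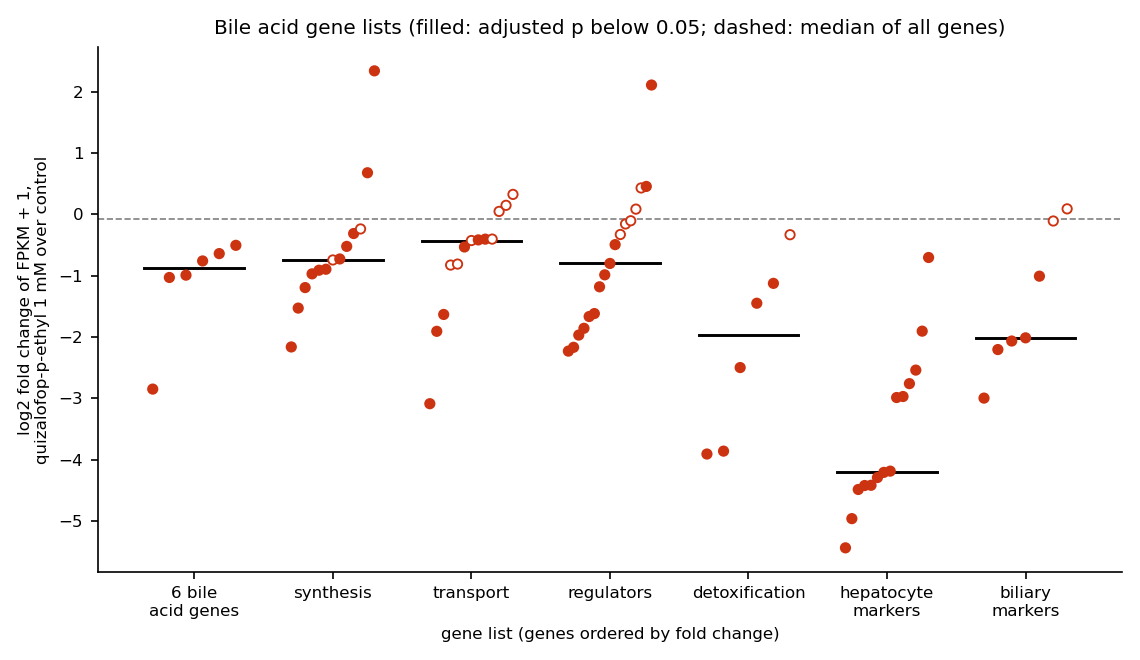
Log2 fold change of FPKM + 1 in quizalofop-p-ethyl 1 mM over control (vertical axis) for each tested gene of 7 lists, with black bars at list medians, filled points at an adjusted p below 0.05 and a dashed line at the median of all tested genes (-0.08). The 6 bile acid genes have a median of -0.88, and the hepatocyte markers one of -4.199.

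With isoxaflutole 1 mM, SLC27A2 rose (log2 fold change 0.66, adjusted p = 0.00193, limma), 1 of 13 synthesis genes, and 0 transport genes and 0 regulators passed. Of all tested genes, 2.42% were called there in either direction, so a count of 0 in a list this short says little about it. In detoxification CYP3A4, which hydroxylates bile acids and many drugs, rose to 80.3 to 274 FPKM, against 2.53 to 3.10 FPKM in control (5.43, adjusted p = 3.50e-15), and UGT1A3 rose by 0.83. In mesotrione 1 mM 0 synthesis, transport and regulator genes passed, where 0.879% of all tested genes were called. CYP3A4 rose there by 1.56 (adjusted p = 0.0110, limma). HSD17B4, of peroxisomal side-chain shortening, was higher in isoxaflutole than in mesotrione, at 40.9 to 57.6 FPKM against 26.1 to 34.8 FPKM.

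Across the 49 libraries, the levels of the 6 genes were most like different genes. The highest Pearson r of log2(FPKM + 1) was 0.98 with ALDH1A1 and 0.98 with METTL7A for BAAT, 0.83 with ADH4 and 0.82 with GLYAT for CYP7A1, and 0.94 with PLS3 and 0.94 with SH3BGRL for CYP7B1. It was 0.88 with RXRA and 0.87 with C10orf10 for CYP27A1, 0.79 with RDH16 and 0.77 with PKLR for SLC27A5, and 0.78 with APOA2 and 0.74 with BAIAP2L2 for NR0B2. These correlations share the difference between groups. After the group means were taken off, BAAT stayed with ALDH1A1 and METTL7A (0.92 and 0.91), and CYP7A1 stood with ADH4 and SULT2A1 (0.62 each), CYP27A1 with LDHD (0.70), CYP7B1 with GPX8 and MBTPS2 (0.73 each), NR0B2 with TTC9 (0.83) and SLC27A5 with RDH16 (0.54). A library far from its group mean can carry much of such an r. Replicate 5 of quizalofop-p-ethyl 1 mM was kept, at 0.235 FPKM in BAAT and 0.0529 FPKM in NR0B2. That group reached 7.38 and 5.51 FPKM in these 2 genes. The correlations were not computed without that library.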

How the data were processed

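Per the labels' protocols, total RNA was depleted of ribosomal RNA, made into strand-marking libraries in randomised order and read as 75 bp pairs. The labels name sequencing pools but not which library was in which, so no pool term was fitted. Tools named in the submitters' processing notes are StringTie, HISAT and HISAT2, on GRCh38, with no versions. The authors deposited 1 table of FPKM for 239290 transcripts, 40117 of them assembled, and all 50 value columns are FPKM per the file headers. In 20 of these deposited columns 24 values lie just below 0 and were set to 0 (their unit is recorded as score for that reason alone). A line broken in the file was rejoined. Since FPKM are scaled to each library's fragments, abundant RNA lowers the other values.

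Transcript FPKM were summed per gene name and assembled transcripts without a name formed loci of their own, which gave 79112 genes and loci. Depth was estimated from the FPKM step of 1 fragment in 17521 single-exon transcripts of 300 to 1500 bp. Values were compared as log2(FPKM + 1), so folds of low genes are understated, with limma 3.58.1 in R 4.3.3 (1 mean per group, trend and robust settings) and Benjamini-Hochberg adjustment over 24222 genes in each of 12 comparisons. The 4 genes under the filter had exact two-sided permutation tests over libraries. On simulated data with 24222 genes, the quizalofop-p-ethyl 1 mM fit recovered 41 of 50 genes changed 2-fold and 33 of 50 changed 1.5-fold, with 5 false among 175 calls. The changed genes had control levels above about 5 FPKM, and the folds were applied to FPKM + 1. Noise was independent and had the control spread in every group. CYP7A1, SLC27A5, NR0B2 and the genes under the filter lie below that level, so these rates do not apply to them. The 10 genes and all lists were chosen with earlier results of these data known. Named genes were the 10 at 1 mM, the passing ones at lower doses, up to 4 per direction with the largest change in each other list, and the 2 most correlated genes; the values of FGFR4, KLB, ABCC2, ABCC3, SLC10A2 and the SLC27A5 transcripts were added after they were seen. Some of the most correlated genes and a motif searched are not reported here. Alternatives tried were median-ratio scaling, a pseudocount of 0.1, no filter, the 2 groups alone, all 50 libraries, added locus transcripts, single transcripts, a replicate block and each library left out.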

Additional observations from a re-analysis of the deposited data

Results flagged for a closer look

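Among 91 sets of 4 or 5 libraries, 8 held a library farther from the others than the 95% limit of Dixon's test, and chance flags about 1 in 20. CYP7A1 was 0.0236 FPKM in replicate 4 of quizalofop-p-ethyl 1 mM, where the others were listed at 0. FGF19 was 0.0252 FPKM in replicate 5 of the same group, again with the others at 0, and each of these is about 1 fragment. CYP7B1 was lowest in replicate 4 of quizalofop-p-ethyl 10 uM, at 5.24 FPKM against 6.83 to 7.07 FPKM in the other libraries of that group. CYP8B1 was highest in replicate 1 of mesotrione 0.1 uM, at 0.665 FPKM against 0.262 to 0.376 FPKM, and in replicate 4 of mesotrione 1 mM, at 0.831 FPKM against 0.276 to 0.431 FPKM. BAAT was highest in replicate 5 of mesotrione 10 uM, at 44.5 FPKM against 34.5 to 36.3 FPKM. ABCB11 was highest in control replicate 5, at 0.341 FPKM against 0.0353 to 0.0694 FPKM. NR0B2 was highest in replicate 2 of quizalofop-p-ethyl 0.1 uM, at 6.77 FPKM against 3.56 to 4.27 FPKM, and this is the library where CYP7A1 was listed at 0.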

How the results depend on the processing

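Between 4 and 7 bile acid genes passed in quizalofop-p-ethyl 1 mM against control over all settings (6 as reported), 2 to 4 against isoxaflutole and 3 to 6 against mesotrione. BAAT, CYP7B1, CYP7A1 and SLC27A5 passed against control in 17 of 17 settings that sum transcripts per gene, CYP27A1 in 16 and NR0B2 in 7. With single transcripts, SLC27A5 had none past the filter, and that of NR0B2 did not pass the threshold (adjusted p = 0.0953, limma). With no filter, CYP8B1 and SLC10A1 passed and NR0B2 did not (adjusted p = 0.0790, limma), and with the 2 groups alone NR0B2 had 0.193. SLC27A5 against mesotrione passed with 0.1 added (adjusted p = 0.0102). Genes called over the table in quizalofop-p-ethyl 1 mM numbered 7926, and 4645 with all 50 libraries; for isoxaflutole and mesotrione 1 mM they numbered 585 and 213, and 80 and 26 with all 50. No scaling moved the median of all genes by more than 0.1.

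Signs changed for log2 fold changes near 0. With unnamed locus transcripts added, CYP7B1 and BAAT in mesotrione 1 mM were 0.0089 and 0.0013, and BAAT was 0.0086 with median-ratio scaling. With 1 library left out, mesotrione 1 mM gave -0.073 to 0.12 for CYP7A1, -0.079 to 0.013 for CYP7B1 and -0.061 to 0.098 for BAAT. NR0B2 ran from -0.54 to 0.11 in quizalofop-p-ethyl against isoxaflutole and from -0.42 to 0.24 against mesotrione, positive in both without replicate 5 of quizalofop-p-ethyl 1 mM. CYP27A1 between isoxaflutole and mesotrione ran from -0.0027 to 0.12. The cause was not tested.

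The runs of sample numbers in the titles were not taken to pair libraries: the median correlation of deviations was 0.02 within a run and -0.01 between runs, and 20 of 49 libraries correlated best with their own of 5 runs, where 9.8 would if all partners were alike, which is a hint from the data and not from the labels. With that replicate block, NR0B2 had an adjusted p of 0.0185 and the count in quizalofop-p-ethyl 1 mM stayed at 6, while calls over the table numbered 343 for mesotrione 1 mM, 810 for isoxaflutole 1 mM and 8163 for quizalofop-p-ethyl 1 mM. FGF19 is too shallow for a change to be seen, and ABCB11 is limited by few fragments and the spread between libraries.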
